A study of Homo sapiens with 27 samples.

Results

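Panc1 is an established human cell line from a pancreatic ductal adenocarcinoma, and clone B is 1 of 2 ARNT knockout lines that were derived from it separately with CRISPR-Cas9. The comparison described here sets clone B cells kept for 48 h in 1% oxygen in TIFM (3 libraries) against clone B cells kept for the same time in the same oxygen in regular medium (3 libraries), so 6 of the 27 libraries were its members and every gene in the count table was read. Regular medium was DMEM with 10% fetal bovine serum and penicillin-streptomycin. TIFM, tumour interstitial fluid medium, is a culture medium composed after the metabolites measured in the fluid of pancreatic tumours, and its serum content is not given in the sources used here. Parental Panc1 cells and clone A, the other ARNT knockout, were handled in the same way and were used to ask where clone B responded differently. Each genotype was also kept for 48 h in regular medium at 20% oxygen, and those libraries entered the fit but no comparison. Each knockout genotype was 1 clone, and TIFM was given only in 1% oxygen. No label says whether the 3 libraries of a group came from separate cultures. The p-values therefore measure the spread between libraries of a group, which may be technical. That spread was taken from 1 fit over all 27 libraries, not from the 6 compared alone.

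ARNT is the constitutive partner that HIF1A and EPAS1 need to bind hypoxia response elements, and the best known hypoxia targets encode glucose transporters, glycolytic enzymes and VEGFA. TIFM replaces a rich medium with one whose amino acids and sugars follow the tumour fluid, and cells read such supplies through separate sensors. ATF4, translated when amino acids run short or the endoplasmic reticulum (ER) is stressed, drives amino acid synthesis and uptake; the SREBP factors drive sterol and fatty acid synthesis when sterols are low; and MondoA, encoded by MLXIP, drives TXNIP and ARRDC4 with the level of glucose 6-phosphate.

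The 6 libraries held between 28633235 and 34235356 counts. Levels are given in CPM, read counts scaled to a common library size, changes as log2 of TIFM over regular medium with their standard errors, and adjusted p-values are Benjamini-Hochberg values of edgeR's quasi-likelihood test over the 13943 genes tested of 21487 in the table. Each standard error was worked back from that test, as the size of the log2 change over the square root of its F. ARNT itself (chromosome 1, 150809705 to 150876768 on GRCh38) was read at 67.5, 61.6 and 65.3 CPM in regular medium and 49.7, 52.1 and 44.6 CPM in TIFM, and the level was lower in each TIFM library than in any library with regular medium (log2 change −0.41 ± 0.09, adjusted p = 0.000298). A transcript count alone does not check the loss of the protein. The line's own markers KRT8, KRT18, KRT19, VIM and SOX9 were all read. Of 21 markers of other cell types, INS, NEUROD1 and HBB had no count in either group, and all 21 together summed to 9.95 to 12.7 CPM in regular medium and 6.43 to 13.9 CPM in TIFM. Of the 10 tested, CHGA (2 counts in regular medium and 70 in TIFM) and CD14 (55 and 112) rose, PDGFRB (237 and 73), LYZ (42 and 5) and ALB fell, and 5 were not called. Regular medium replicate 3 stood apart by liver transcripts: it held 117 ALB, 92 APOB and 60 AFP counts where the other 5 libraries held at most 3, 2 and 0. The same transcripts were read in all 3 parental TIFM libraries and in 2 of 3 of clone A, and their part in other results was not tested. In all, 3417 genes had no count in any library, among them 2330 protein-coding genes, so some members of the gene groups below are missing from the tests. Whether counting used strand is not given in the sources used here, so a gene that shares exon length with another annotated gene may hold some of its reads. Besides the shares given below, this applies to C15orf48 (32.5%), DDIT3 (39.6%), CA9 (38.5%), CCNE2 (37.1%), ARG2 (37.4%), RRM2 (20.2%), HLA-B (18.9%), NQO1 (17.7%), RPL38 (17.7%) and ASL (17.6%), and to WARS1, NPRL2, GINS3, CCND1, RRS1 and STEAP3 at 10.3 to 11.4%. Levels of HLA and ribosomal protein genes are uncertain for a further reason, since both families have near-identical copies.

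The change of medium moved 7490 genes in clone B, 53.7% of those tested, with 3605 higher in TIFM (25.9%) and 3885 lower (27.9%). At 2-fold or more, 1076 rose and 1612 fell. The 3 libraries of one medium did not overlap the 3 of the other for 8629 genes (61.9%), so the counts for gene groups below have to be read against these shares. Scaling by library totals alone moved the share of called genes that were higher from 48.1% to 34.7%, and moved the median log2 change of all genes from −0.03 to −0.19; the larger shifts this made in counts of members are given beside the groups.

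**Figure D1:**
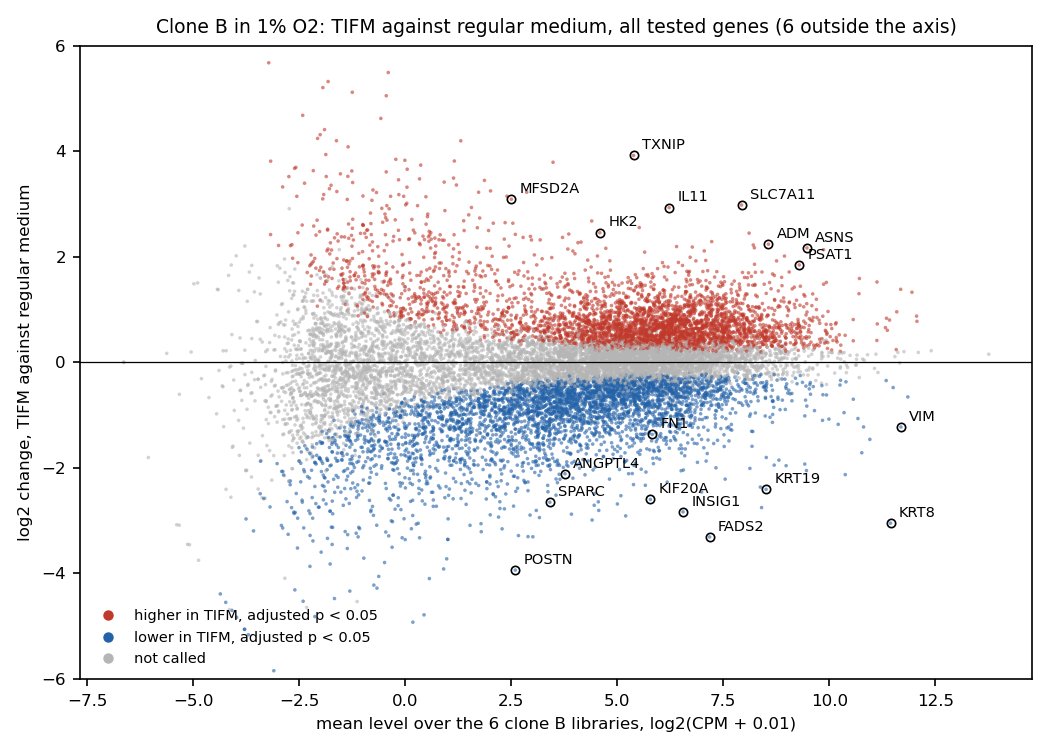
Each point is 1 of the 13943 genes tested in clone B, placed by its mean log2 level (x axis) and its log2 change from regular medium to TIFM (y axis, cut at ±6, which leaves 6 genes outside). Called genes are coloured by direction, 3605 higher and 3885 lower, and named genes are labelled.

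The largest rise among genes that averaged 5 CPM or more in either medium was that of TXNIP (chromosome 1, 145992435 to 145996600), an arrestin that holds back glucose uptake. TXNIP was at 4.12, 5.80 and 5.60 CPM in regular medium and 130.3, 52.2 and 52.02 CPM in TIFM (log2 change 3.92 ± 0.30, adjusted p = 9.9e-11). The 2 media did not overlap, and TIFM replicate 1 was far above the other TIFM libraries. Among genes of known function, SLC7A11, the cystine transporter, rose from 53.5, 59.5 and 51.7 to 450.2, 443 and 405 CPM (log2 change 2.98 ± 0.26, adjusted p = 8.88e-10), and IL11, a cytokine of the IL6 family, from 19.96, 19.3 and 12.7 to 143, 122 and 130.4 CPM (log2 change 2.93 ± 0.23, adjusted p = 1.4e-10). Other large rises were those of MFSD2A, a lysophospholipid transporter (log2 change 3.09), GRIN2C, an NMDA receptor subunit (3.15), FERMT3, an integrin activator (2.93), DHRS2, a short-chain dehydrogenase (2.73), LYPD5 (3.25), STKLD1 (3.79) and SMIM47 (3.44). Z84492.1 (3.22) and ABCF2-H2BK1 (3.22) share 100% of their exon length with other annotated genes, so their reads cannot be assigned with certainty.

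The deepest fall among genes that averaged 5 CPM or more in either medium without overlap was that of POSTN (chromosome 13, 37562583 to 37598844), the matrix protein periostin, which was at 13.2, 6.81 and 13.9 CPM in regular medium and 1.21, 0.199 and 0.793 CPM in TIFM (log2 change −3.94 ± 0.59, adjusted p = 4.83e-06). Every regular library was above every TIFM library, with fewer than 2 CPM left in TIFM. FADS2, the desaturase that starts the synthesis of highly unsaturated fatty acids, went from 211, 283 and 294 to 22.1, 28.2 and 29.3 CPM (log2 change −3.31 ± 0.15, adjusted p = 2.14e-14). KRT8, a keratin of simple epithelia, went from 5535, 4231 and 5133 to 374, 609 and 822 CPM (log2 change −3.05 ± 0.26, adjusted p = 8.86e-10). In both genes every regular library was more than 5 times as high as any TIFM library. The other deep falls were TM7SF2, a sterol reductase (−3.15), CACNA1G, a calcium channel (−3.30), CORO6 (−3.31), CCDC74A (−3.28), PRDM8 (−3.21), ASB9 (−3.09), the helicase PIF1 (−3.06), C15orf48 (−2.99) and MYH15 (−2.94; −3.62 without TIFM replicate 3).

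**Figure D2:**
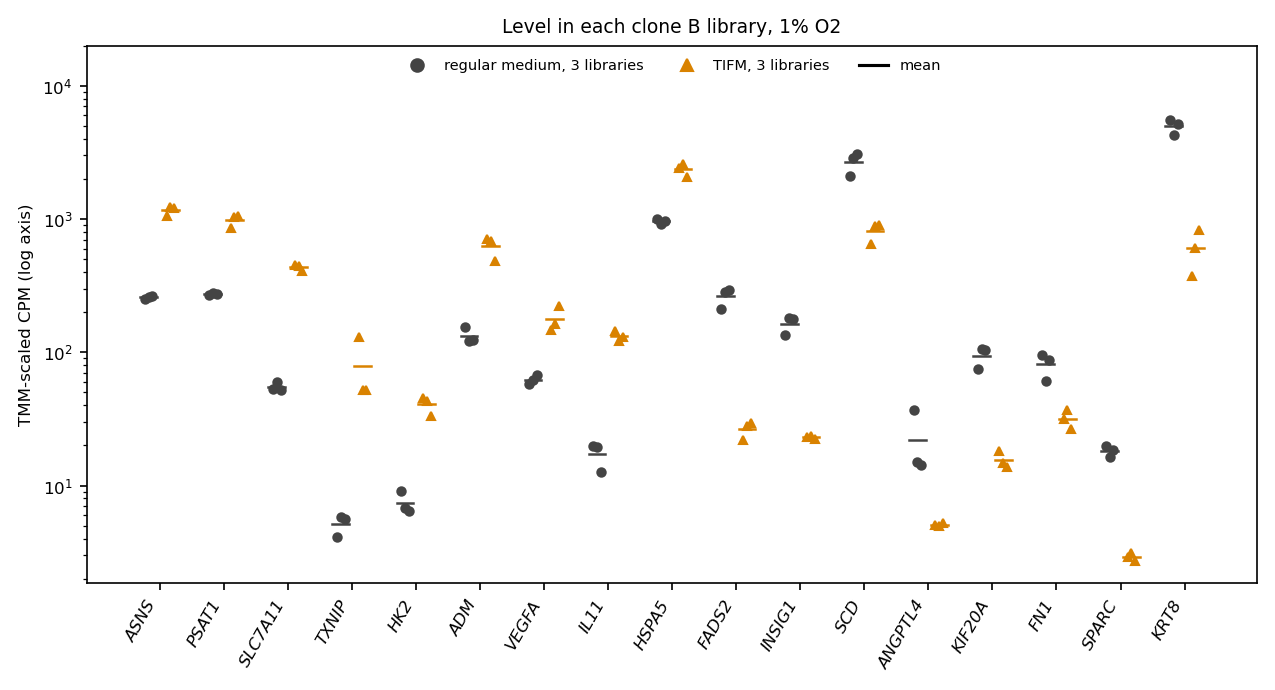
Scaled CPM on a log axis (y) for named genes (x) in the 3 regular-medium libraries (circles) and the 3 TIFM libraries (triangles) of clone B, with short lines at the group means. In every gene shown, from ASNS to KRT8, the libraries of the media lie apart without overlap.

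Most of the tested amino acid genes rose. Of 23 tested genes on the list of ATF4 factors and targets, 18 rose, 1 fell and 4 were not called, with a median log2 change of 1.16 against −0.03 over all genes. ATF4 (chromosome 22, 39519695 to 39522685) itself was at 219.9, 260.4 and 270.5 CPM in regular medium and 571, 638 and 708 CPM in TIFM (log2 change 1.35 ± 0.13, adjusted p = 4.79e-09). The lowest TIFM library lay well above the highest regular one. Further members that rose were CTH, which makes cysteine, PPP1R15A, which directs the phosphatase that restores translation, the lipoprotein receptor VLDLR, and INHBE, with log2 changes of 2.68, 2.29, 2.28 and 2.22. TRIB3, a pseudokinase that restrains ATF4, rose less (log2 change 0.69 ± 0.20, adjusted p = 0.00609). DDIT4, which restrains mTORC1 and shares 41.2% of its exon length with another gene, was at 70.6, 89.9 and 102 CPM in regular medium and 86.98, 91.9 and 87.05 CPM in TIFM, so the media overlapped (log2 change 0.02 ± 0.14, adjusted p = 0.916). SESN2, a leucine sensor, fell (log2 change −0.68 ± 0.21, adjusted p = 0.00916), a call that was lost without TIFM replicate 3 (−0.48, adjusted p = 0.0728), and DDIT3, the stress factor CHOP, rose by 0.91 with a call that was lost without TIFM replicate 1 (0.56, adjusted p = 0.0693). INHBE and DDIT3 averaged under 5 CPM in both media.

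The enzymes of serine synthesis rose beside a mixed folate cycle. PSAT1, the serine pathway aminotransferase, was at 270.0, 277 and 272 CPM in regular medium and 855, 1035 and 1051 CPM in TIFM (log2 change 1.84 ± 0.12, adjusted p = 9.74e-12), and PHGDH, the enzyme before it, at 69.3, 73.3 and 73.5 CPM in regular medium and 160.5, 187 and 178 CPM in TIFM (log2 change 1.28 ± 0.15, adjusted p = 6.68e-08). Both genes had tight, separate groups. On the whole list of serine, glycine and folate enzymes, 8 of 17 tested genes rose, 3 fell and 6 were not called. MTHFD2, a mitochondrial folate enzyme that shares 33.2% of its exon length with another gene, rose by 0.69, while SHMT2 was at 60.5, 64.1 and 64.8 CPM in regular medium and 43.01, 58.8 and 53.3 CPM in TIFM and not called (adjusted p = 0.199). The SHMT2 values did not overlap between media. It was called lower in 3 of 17 alternatives: only the 9 clone B libraries, a replicate block on the 6 libraries compared, and library totals alone. GLDC, which cleaves glycine, fell (−1.19) and averaged under 5 CPM in both media.

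ASNS, asparagine synthetase (chromosome 7, 97852118 to 97872542), was at 250.3, 261 and 265 CPM in regular medium and 1048, 1226 and 1211 CPM in TIFM (log2 change 2.17 ± 0.13, adjusted p = 1.4e-12); 44.6% of its exon length is shared with another annotated gene. ASS1, which starts arginine synthesis from citrulline, rose from 9.27 ± 0.838 to 32.4 ± 3.69 CPM (mean ± SD, n = 3; log2 change 1.80 ± 0.15, adjusted p = 3.71e-10). ALDH18A1 (1.01) and PYCR1 (0.65; 29.7% shared exon length), which act in proline synthesis, also rose, and PYCR3, the cytosolic proline enzyme, fell (−1.90). GLUL, glutamine synthetase, was at 118, 141 and 164 CPM in regular medium and 73.3, 99.3 and 185 CPM in TIFM, where TIFM replicate 3 was the highest of all 6 libraries and replicate 1 the lowest (log2 change −0.25 ± 0.24, adjusted p = 0.398). Without TIFM replicate 3 GLUL was lower with a call (−0.71, adjusted p = 0.00696). ASL and ARG2 were not called (log2 changes −0.33 and −0.49). In total 9 of the 18 tested enzymes of asparagine, glutamine, arginine and proline rose, 4 fell and 5 were not called.

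Carriers and tRNA synthetases followed the same direction. Of 20 tested amino acid transporters 15 rose, 3 fell and 2 were not called, with a median of 0.81. SLC7A1, the carrier of arginine and lysine, was at 139, 129 and 124 CPM in regular medium and 459.7, 488 and 468 CPM in TIFM (log2 change 1.86 ± 0.10, adjusted p = 2.74e-13). SLC3A2, the heavy chain that SLC7A11 and the leucine carrier SLC7A5 need, went from 126, 108 and 115 to 370.4, 370.1 and 395 CPM (log2 change 1.70 ± 0.15, adjusted p = 1.49e-09). In both genes each medium held its libraries within a narrow range. SLC1A4, a carrier of neutral amino acids (1.77), and SLC7A5 (0.74) rose as well. SLC38A2, which takes up glutamine and alanine, was at 1511, 1804 and 2308 CPM in regular medium and 1678, 3005 and 5340.0 CPM in TIFM (log2 change 0.83, adjusted p = 0.0197). TIFM replicate 3 was the highest library, and without it the call was lost (0.32, adjusted p = 0.347). The call of SLC38A2 was lost in 6 of 17 alternatives. The others were leaving out regular replicate 1 or 2, library totals alone, and fits of only the libraries compared or only the 9 clone B libraries. Among 20 cytosolic tRNA synthetases 13 rose, 2 fell and 5 were not called. SARS1 (log2 change 1.48 ± 0.15, adjusted p = 1.09e-08), EPRS1 (1.07), WARS1 (0.67) and GARS1 (0.63) were among those that rose, and QARS1 for glutamine (log2 change −1.32 ± 0.16, adjusted p = 1.25e-07) and HARS1 for histidine (−1.20) were those that fell.

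Promoter sequences were read for this group because ATF4 with a C/EBP partner binds the element TGATGNAA. Among all 35116 RefSeq promoters (250 bases before the start, GRCh38.p14, both strands), 3.14% held it, and 1.89% of the 16104 promoters of tested genes did. Of the 18 ATF4-list genes that rose, 14 had a promoter in the RefSeq table, 22 promoters in all, and 5 of these held a match, 1 each in ATF3, CEBPG, CHAC1, HERPUD1 and JDP2. The call of CHAC1 (0.54, adjusted p = 0.0205) was lost without regular replicate 1 or 3 or TIFM replicate 1 or 2, and with library totals alone. ASNS and GOT1 held it among the 6 risen asparagine, glutamine, arginine and proline enzymes with a promoter, in 2 of 8 promoters. AARS1 and GARS1 held it among 10 risen tRNA synthetases, in 2 of 14 promoters. Of 12 risen transporters with a promoter only SLC1A5 did, in 1 of 22 promoters. Of 7 risen serine, glycine and folate enzymes only MTHFD1L did, in 2 of 11 promoters. A match is a description of the letters, not a measured site. The stretches around it are shown for ASNS, and for AARS1 where it reads as TTGCATCA on the other strand, with the match in capitals.
ASNS promoter, chr7:97872443-97872502, minus strand: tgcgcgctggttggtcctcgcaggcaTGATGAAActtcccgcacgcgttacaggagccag
AARS1 promoter, chr16:70289660-70289719, minus strand: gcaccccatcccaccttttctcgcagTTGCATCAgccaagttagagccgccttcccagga

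Sterol and fatty acid synthesis went the opposite way. Of 27 tested genes for cholesterol synthesis, uptake and efflux, 22 fell, 3 rose and 2 were not called, with a median log2 change of −1.20. INSIG1 (chromosome 7, 155297776 to 155310235), which retains SREBP in the ER when sterols are ample and is itself an SREBP target, was at 134, 179.7 and 178 CPM in regular medium and 23.2, 23.4 and 22.5 CPM in TIFM (log2 change −2.83 ± 0.17, adjusted p = 1.3e-12). SQLE, squalene epoxidase, was at 193, 223 and 219 CPM in regular medium and 111, 113 and 110.0 CPM in TIFM (log2 change −0.92 ± 0.09, adjusted p = 5.02e-09). Both genes had lower values in every TIFM library than in any regular one. HMGCS1 (−1.62; 15% shared exon length), the sterol carrier STARD4 (−2.91) and TM7SF2 (−3.15) fell too. The 3 that rose were ABCA1, which exports cholesterol (log2 change 0.80 ± 0.18, adjusted p = 0.00044), MYLIP, a ubiquitin ligase (log2 change 0.43 ± 0.11, adjusted p = 0.00126), and NPC1L1, a sterol uptake protein, which went from 0.147, 0.387 and 0.221 to 2.70, 4.34 and 6.98 CPM (4.20). ABCG1 was near 0 in both media.

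In fatty acid synthesis 12 of 19 tested genes fell, 2 rose and 5 were not called. SCD, the desaturase that makes oleate, was at 2109, 2849 and 3047 CPM in regular medium and 645, 892 and 903 CPM in TIFM (log2 change −1.71 ± 0.14, adjusted p = 2.95e-10). ACLY, which makes cytosolic acetyl-CoA from citrate, went from 389.9, 466 and 488 to 110.5, 115 and 108 CPM (log2 change −2.01 ± 0.11, adjusted p = 2.42e-13), and FASN, fatty acid synthase, from 242, 308 and 328 to 95.3, 103 and 115 CPM (log2 change −1.49 ± 0.13, adjusted p = 1.61e-09). None of these overlapped between media. ACSS2, which makes acetyl-CoA from acetate, fell by 2.64 on the log2 scale, and SREBF1, the factor itself, by 0.97. Genes of lipid droplets and lipid uptake were divided, 5 higher, 4 lower and 10 not called of 19; scaling by library totals gave 7 lower. PLIN2, the coat protein of lipid droplets, rose from 25.1, 23.7 and 26.9 to 69.4, 68.97 and 72.8 CPM (log2 change 1.48 ± 0.13, adjusted p = 6.31e-10), and CPT1A, which admits fatty acids to mitochondria, rose by 0.90; PLIN3, which shares 17.8% of its exon length, fell (−1.57).

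SREBP factors bind sterol regulatory elements, and TCACNCCAC was searched as 1 such motif; 0.883% of all promoters held it on either strand. Of the 22 lower genes of the cholesterol list 16 had a promoter in the RefSeq table, and SREBF2, which encodes the SREBP that favours sterol genes, held the only match, shown in capitals. No match says only that these letters are not in the window.
SREBF2 promoter, chr22:41832946-41833006, plus strand: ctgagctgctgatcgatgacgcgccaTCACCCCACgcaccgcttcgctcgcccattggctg

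**Figure D3:**
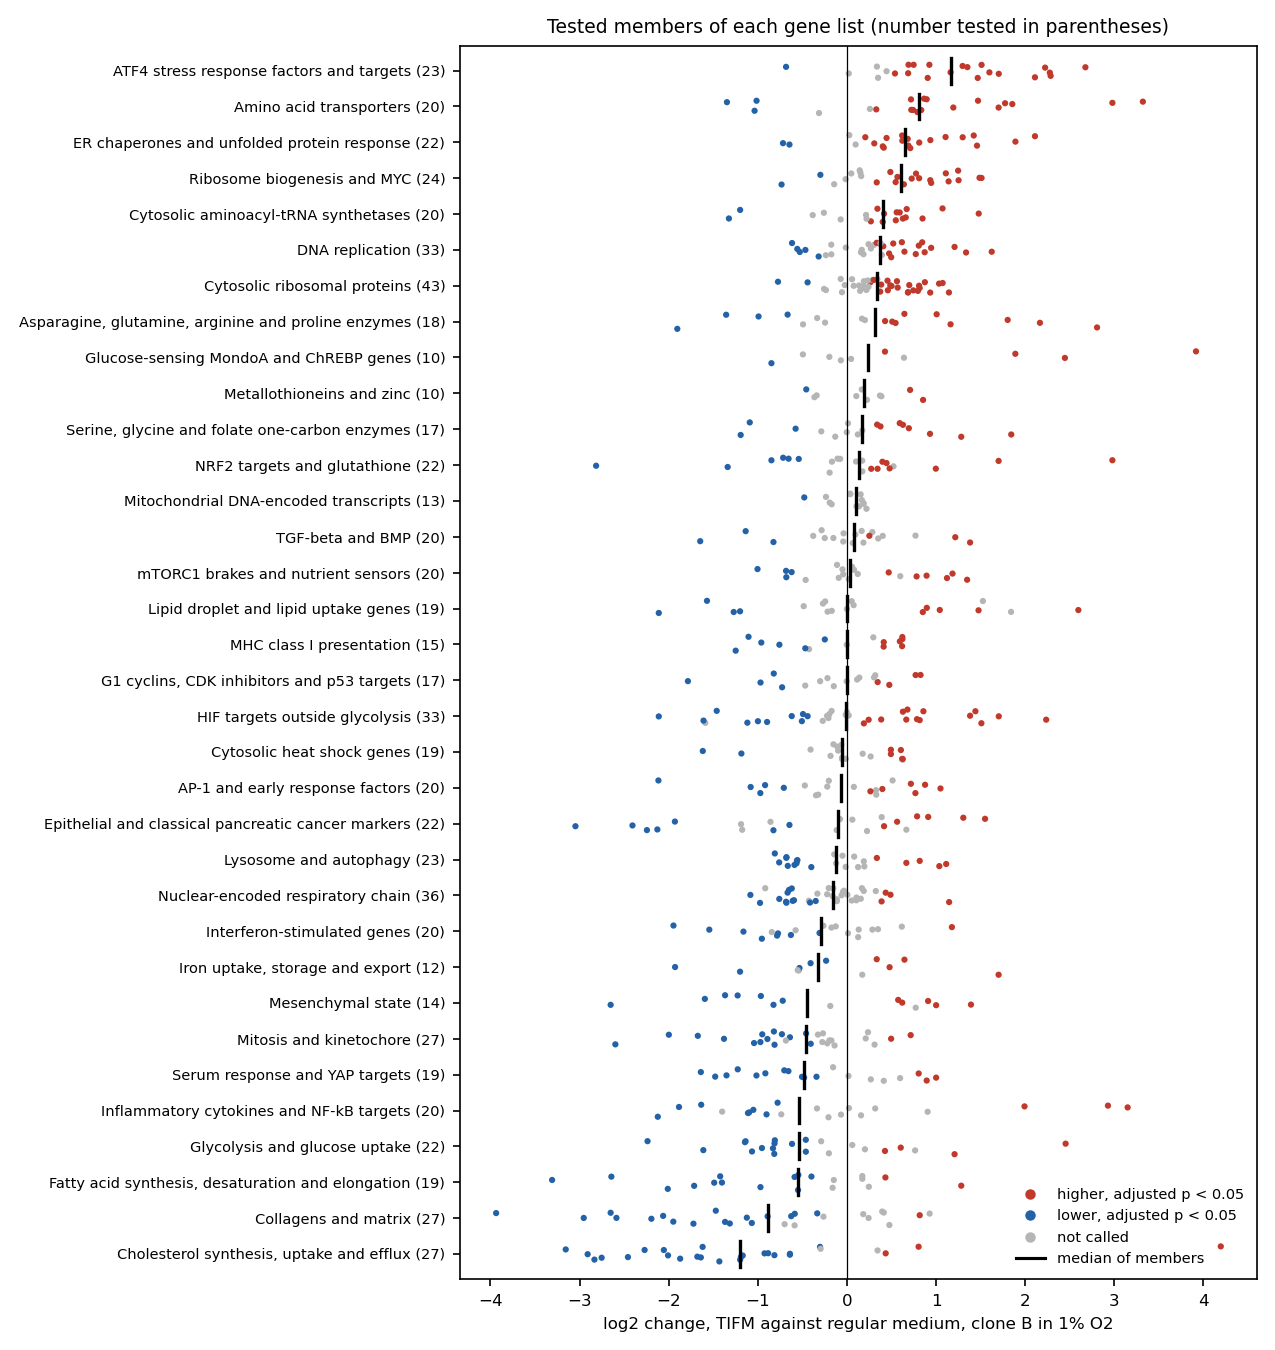
Log2 change in TIFM in clone B (x axis) of each tested member of the gene lists (rows, with the number tested), coloured by call, with a black line at the list's median. The ATF4 list, with a median of 1.16, lies farthest to the right, and the cholesterol list, with a median of −1.20, farthest to the left.

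ER chaperones rose: of 22 tested genes of the unfolded protein response 18 rose, 2 fell and 2 were not called (median 0.65). HSPA5, the main ER chaperone BiP, was at 998, 916 and 968 CPM in regular medium and 2428, 2588 and 2076 CPM in TIFM (log2 change 1.30 ± 0.09, adjusted p = 2.49e-11). HERPUD1, which serves ER-associated degradation, was at 50.3, 48.4 and 50.8 CPM in regular medium and 211, 229.9 and 204 CPM in TIFM (log2 change 2.11 ± 0.10, adjusted p = 6.78e-14). XBP1, the factor spliced by IRE1, was at 38.4, 36.4 and 35.8 CPM in regular medium and 131, 145 and 134 CPM in TIFM (log2 change 1.89 ± 0.13, adjusted p = 2.56e-11). The media were far apart for each of them, and HSP90B1 (1.42) and DNAJC3, the PERK inhibitor P58IPK (1.46), rose with them. CRELD2 fell (log2 change −0.64 ± 0.17, adjusted p = 0.00313), and DNAJB9 was at 39.4, 35.1 and 34.5 CPM in regular medium and 33.8, 36.6 and 40.8 CPM in TIFM, without a call (log2 change 0.03 ± 0.12, adjusted p = 0.869). Cytosolic heat shock genes were mostly not called, 12 of 19, with 5 higher and 2 lower. HSPA1A, the classical inducible HSP70, was at 56.3, 53.7 and 61.01 CPM in regular medium and 50.1, 54.4 and 60.02 CPM in TIFM with overlapping groups (adjusted p = 0.776). HSPA8 (0.61) and HSPA4 (0.62), which are expressed without stress, rose, and HSPB1 fell (−1.18).

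Glucose genes were lower for most members. Of 22 tested genes of glycolysis and glucose uptake 13 fell, 4 rose and 5 were not called, with a median of −0.54. HK2, the inducible hexokinase (chromosome 2, 74833981 to 74893359), was at 9.07, 6.78 and 6.40 CPM in regular medium and 45.6, 43.05 and 33.2 CPM in TIFM (log2 change 2.45 ± 0.17, adjusted p = 2.35e-11). PDK1, which inhibits pyruvate dehydrogenase, was at 39.8, 38.4 and 34.9 CPM in regular medium and 97.2, 89.6 and 74.4 CPM in TIFM (log2 change 1.21 ± 0.16, adjusted p = 9.34e-07). SLC2A1, the basal glucose transporter, was at 28.7, 25.5 and 26.5 CPM in regular medium and 42.6, 43.8 and 36.2 CPM in TIFM (log2 change 0.60 ± 0.15, adjusted p = 0.00148). These 3 and PFKFB3 (0.43), which makes an activator of glycolysis, were the members that rose, each without overlap. Among the 13 that fell, LDHA, which makes lactate, was at 1584, 1762 and 1808 CPM in regular medium and 787, 879 and 995 CPM in TIFM (log2 change −0.95 ± 0.11, adjusted p = 7.71e-08), and PGK1 went from 883, 902 and 952 to 598, 692 and 699.9 CPM (log2 change −0.46 ± 0.13, adjusted p = 0.00474). SLC16A3, the lactate exporter (−1.61), and PFKFB4 (−2.24) fell further, and SLC2A3 stayed under 1 CPM in all 6 libraries (log2 change 0.06 ± 0.46, adjusted p = 0.923).

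Among 10 tested MondoA and ChREBP genes, 4 rose, 1 fell and 5 were not called. ARRDC4, the arrestin most like TXNIP in its regulation, was at 2.68, 3.15 and 2.98 CPM in regular medium and 18.6, 7.62 and 6.42 CPM in TIFM (log2 change 1.89 ± 0.33, adjusted p = 3.82e-05), and the change was 1.29 without TIFM replicate 1. KLF10, a zinc finger repressor, was at 106, 76.5 and 74.1 CPM in regular medium and 582, 441 and 376 CPM in TIFM (log2 change 2.45 ± 0.17, adjusted p = 1.56e-11). TIFM replicate 1 was the highest for TXNIP, ARRDC4 and KLF10 alike. MLXIP was at 77.4, 88.6 and 89.7 CPM in regular medium and 78.7, 84.7 and 80.7 CPM in TIFM, overlapping between media (adjusted p = 0.649).

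Genes best known as HIF targets outside glycolysis went both ways in this ARNT knockout clone: of 33 tested, 14 rose, 10 fell and 9 were not called, with a median of −0.01. ADM, the vasodilator adrenomedullin (chromosome 11, 10304680 to 10307397), was at 153, 121 and 123 CPM in regular medium and 709.9, 678 and 485 CPM in TIFM (log2 change 2.24 ± 0.14, adjusted p = 4.36e-12). VEGFA, the endothelial growth factor (chromosome 6, 43770184 to 43786487), was at 58.2, 61.8 and 67.05 CPM in regular medium and 148, 164 and 221 CPM in TIFM (log2 change 1.51 ± 0.14, adjusted p = 1.66e-09). STC2, a secreted glycoprotein also known as an ATF4 target, was at 158, 137 and 136 CPM in regular medium and 460.0, 482 and 461 CPM in TIFM (log2 change 1.70 ± 0.09, adjusted p = 1.28e-13). For these 3 the media lay far apart, and NDRG1 rose less (log2 change 0.86 ± 0.17, adjusted p = 0.00014). ANGPTL4, an inhibitor of lipoprotein lipase (chromosome 19, 8363289 to 8374373), was at 37, 14.9 and 14.3 CPM in regular medium and 5.08, 4.97 and 5.25 CPM in TIFM (log2 change −2.11 ± 0.29, adjusted p = 1.51e-06). Regular replicate 1 was the highest of the regular libraries, and without it the change was −1.52. PPFIA4 also fell (−1.61), and EGLN3 was under 1 CPM in all 6 libraries. CA9, the carbonic anhydrase used as a hypoxia marker, had at most 0.193 CPM in any of the 6 libraries.

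The core of the hypoxia response element, ACGTG, was read in these promoters because ARNT is the partner that binds it; 18.5% of all promoters and 21.6% of those of tested genes held it. Among the risen glycolysis genes HK2, PDK1 and PFKFB3 held it, in 4 of the 7 promoters of the risen genes, and 7 of the 32 promoters of the lower genes did. On the HIF list 10 of 14 promoters of higher genes and 4 of 8 of lower genes held it; a gene can have several promoters. The E-box CACGTG, the core bound by MondoA with MLX, contains ACGTG. It stood in 6.34% of all promoters and 7.99% of those of tested genes. Of the 3 risen MondoA and ChREBP genes with a promoter, ARRDC4 and PFKFB3 held the E-box and TXNIP did not. The first HK2 start, ANGPTL4 and ARRDC4 are shown since HK2 and ARRDC4 rose and ANGPTL4 fell; capitals mark the match, and CACGT is ACGTG read on the other strand.
HK2 promoter, chr2:74834053-74834109, plus strand: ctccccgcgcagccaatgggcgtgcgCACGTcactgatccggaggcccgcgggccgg
ANGPTL4 promoter, chr19:8363905-8363951, plus strand: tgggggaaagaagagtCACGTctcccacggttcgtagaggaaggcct
ARRDC4 promoter, chr15:97960467-97960524, plus strand: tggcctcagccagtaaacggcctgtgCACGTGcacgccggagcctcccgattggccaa

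**Figure D4:**
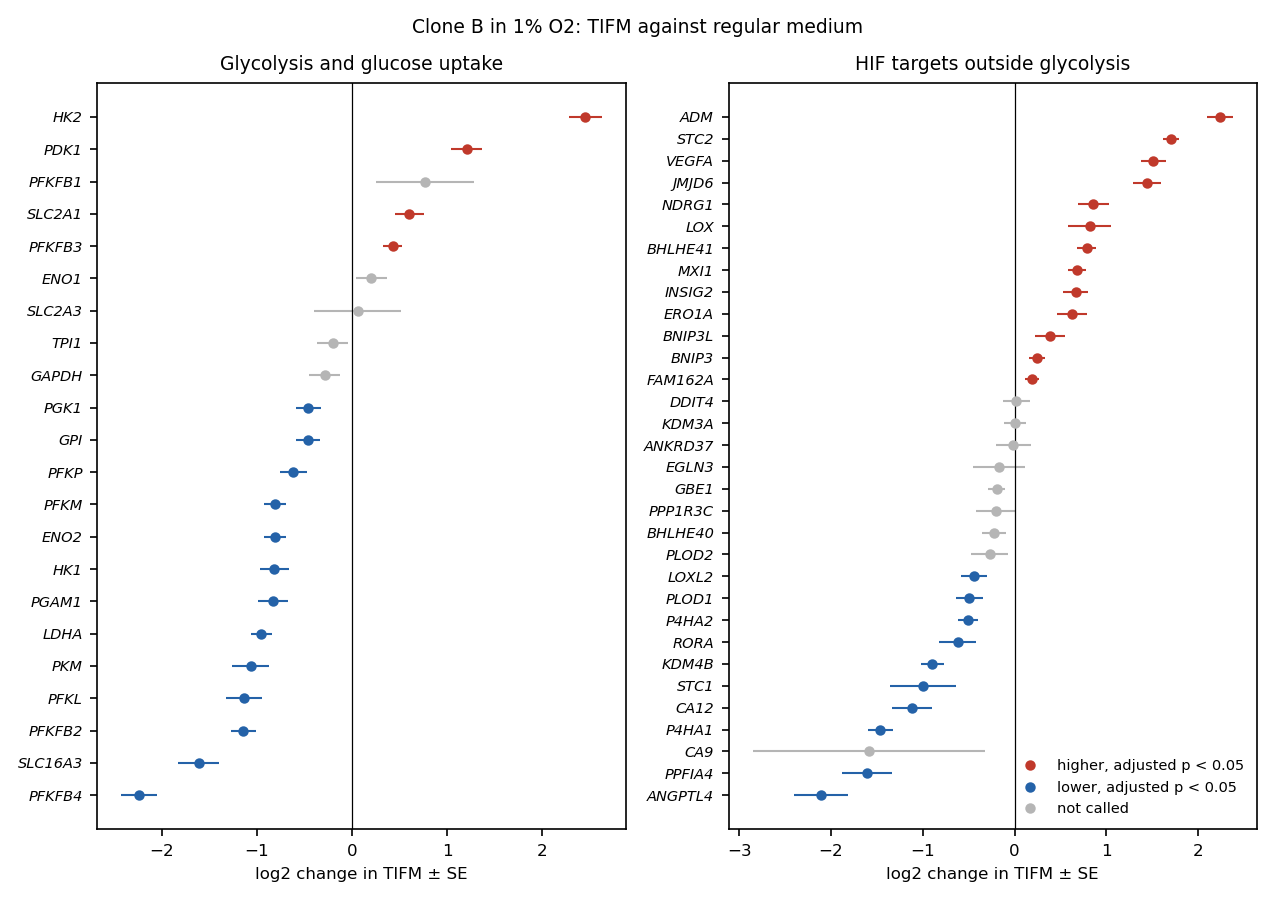
Log2 change in TIFM (x axis) with its standard error for the tested genes of glycolysis (left) and of the HIF list (right, 1 gene not shown) in clone B, coloured by call; the vertical line is no change. HK2, ADM and VEGFA lie on the side of TIFM, and LDHA, PGK1, SLC16A3 and ANGPTL4 on the side of regular medium.

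Nutrient sensing and lysosomal genes went both ways. Of 20 tested mTORC1 brakes and sensors 6 rose, 4 fell and 10 were not called, and 2 fell without TIFM replicate 1. NPRL2, a subunit of the amino acid brake GATOR1, was at 8.86, 8.65 and 8.05 CPM in regular medium and 20.8, 23.2 and 21.1 CPM in TIFM (log2 change 1.35 ± 0.16, adjusted p = 1.22e-07). FNIP2, which acts on the RagC and RagD GTPases (1.19), MITF, a lysosomal gene factor (1.12), and EIF4EBP1, the translation repressor (0.78), rose, and TSC2 fell (log2 change −1.0 ± 0.15, adjusted p = 5.83e-06). On the list of lysosome and autophagy genes 10 of 23 fell, 5 rose and 8 were not called. MAP1LC3B, the autophagosome protein, was at 216, 217 and 217 CPM in regular medium and 479, 482 and 445 CPM in TIFM (log2 change 1.11 ± 0.09, adjusted p = 1.71e-10). The autophagy receptor SQSTM1 (1.04; 22% shared exon length) and GABARAPL1 (0.82) rose beside it, while the kinase ULK1 (−0.81) and the protease CTSL (−0.66) fell.

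On balance mitotic genes were lower and genes of DNA replication higher. Of 27 tested mitosis and kinetochore genes 14 fell, 2 rose and 11 were not called (median −0.46). KIF20A, a kinesin of cytokinesis, was at 74.4, 105 and 104 CPM in regular medium and 18.04, 14.9 and 13.7 CPM in TIFM (log2 change −2.60 ± 0.13, adjusted p = 1.42e-13). CCNB1, cyclin B1, was at 209, 281 and 279 CPM in regular medium and 84.5, 61.7 and 46.3 CPM in TIFM (log2 change −2.0 ± 0.16, adjusted p = 1.36e-10). PLK1, a mitotic kinase that shares 12.5% of its exon length, was at 82.7, 104 and 104 CPM in regular medium and 32.2, 27.4 and 31.5 CPM in TIFM (log2 change −1.67 ± 0.16, adjusted p = 3.93e-09). No TIFM library reached the lowest regular one in any of the 3. AURKA (−1.38) and MKI67 (−1.04) fell as well. In bulk libraries fewer cells in mitosis and less RNA per cell cannot be told apart. On the DNA replication list 16 of 33 rose, 5 fell and 12 were not called (median 0.37); 3 fell without regular replicate 2. ORC6, of the origin recognition complex, was at 26.6, 30.3 and 28.1 CPM in regular medium and 88.5, 80.6 and 92.98 CPM in TIFM (log2 change 1.62 ± 0.15, adjusted p = 1.45e-09), and GINS2 (1.34), GINS3 (1.21), PCNA, the polymerase clamp (0.77), and CDC6 (0.65) rose too. RRM2, CCNE2 and E2F1 were not called, at log2 changes of 0.24, 0.27 and 0.17. CCND1, cyclin D1, rose from 665, 505 and 429.5 to 1059, 933 and 843 CPM (log2 change 0.83 ± 0.14, adjusted p = 2.26e-05), and the inhibitors CDKN1A (−0.82) and CDKN2C (−1.78) fell; of the 17 tested G1 and p53 genes 4 rose, 4 fell and 9 were not called.

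Of 24 tested genes of ribosome biogenesis 16 rose, 2 fell and 6 were not called (median 0.60). MYC, which drives this programme, was at 159, 139 and 161 CPM in regular medium and 264, 304 and 236 CPM in TIFM (log2 change 0.81 ± 0.13, adjusted p = 1.06e-05). NOP58 (1.51), NOLC1 (1.25), PES1 (1.25) and RRS1 (1.49), which assemble the subunits, rose, NOP56 fell (−0.73), and nucleolin, NCL, was not called (log2 change 0.14 ± 0.09, adjusted p = 0.196). Of 43 ribosomal protein genes 23 rose, 2 fell and 18 were not called, and library totals alone left 15 higher; RPL37 (1.15), RPL23 (1.03) and RPL38 (0.94) were among those that rose. Transcripts of mitochondrial DNA were not called for 12 of 13. MT-CO1 was at 5176, 4706 and 5130.0 CPM in regular medium and 5379, 5880.0 and 6224 CPM in TIFM (log2 change 0.22 ± 0.19, adjusted p = 0.355). Nuclear genes of the respiratory chain were lower for 12 of 36, higher for 4 and not called for 20, and 20 were lower with library totals alone; NDUFB5 of complex I (log2 change −1.08 ± 0.10, adjusted p = 3.5e-09), ATP5F1C of the ATP synthase (−0.97) and UQCRC1 of complex III (−0.76) were among the lower.

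Genes of iron and of the antioxidant response did not move as blocks. TFRC, the transferrin receptor, was at 1044, 1131 and 1081 CPM in regular medium and 263, 258 and 336 CPM in TIFM (log2 change −1.93 ± 0.15, adjusted p = 2.26e-10). HMOX1, which releases iron from haem, was at 68.5, 34.7 and 41.5 CPM in regular medium and 160.0, 158 and 153 CPM in TIFM (log2 change 1.70 ± 0.25, adjusted p = 2.48e-06). SLC11A2, an iron importer, rose (log2 change 0.65 ± 0.09, adjusted p = 2.32e-06), and the ferrireductase STEAP3 fell (−1.20). In total 4 of 12 tested iron genes rose and 5 fell, with 3 lower without regular replicate 3 or TIFM replicate 3 and 2 higher with library totals alone. Of 22 tested NRF2 genes 8 rose, 6 fell and 8 were not called, and library totals alone left 3 higher, and 5 were higher without TIFM replicate 3. TXNRD1, thioredoxin reductase, rose from 612, 528 and 522 to 1080.0, 1162 and 1075 CPM (log2 change 1.0 ± 0.12, adjusted p = 9.55e-08), NQO1 fell (log2 change −0.72 ± 0.14, adjusted p = 0.000117), and GCLM was not called (0.10). Metallothioneins and zinc genes were not called for 7 of 10; MT1E (0.85) and the importer SLC39A14 (0.71) rose.

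Interferon-stimulated genes were lower for 8 of 20, higher for 1 and not called for 11; under a stricter filter on low counts 5 were lower. USP18, which dampens the interferon receptor, was at 5.80, 6.04 and 6.98 CPM in regular medium and 1.18, 1.62 and 2.11 CPM in TIFM (log2 change −1.95 ± 0.24, adjusted p = 2.27e-07). SAMD9 (−1.54) and MX1 (−1.16) fell, ISG15 was not called (−0.13), and IFI27 was the 1 that rose (1.18). Genes of MHC class I presentation went 6 up and 6 down of 15, with 3 down without TIFM replicate 1: the heavy chain HLA-B rose (log2 change 0.59 ± 0.17, adjusted p = 0.00416), and TAPBP, which loads peptides (log2 change −1.10 ± 0.16, adjusted p = 3.91e-06), fell. Of 20 inflammatory genes 8 fell, 3 rose and 9 were not called, with 5 lower without regular replicate 1. CCL2, a monocyte chemokine, was at 49.5, 47.2 and 73.7 CPM in regular medium and 2.38, 8.72 and 35.5 CPM in TIFM. TIFM replicate 3 lay far above the other TIFM libraries, and the change of −1.88 (adjusted p = 0.00398) was −3.36 without it; with only the 6 libraries compared the call was lost (adjusted p = 0.104). PTGS2, the inducible cyclooxygenase, rose by 1.99, and by 0.99 without TIFM replicate 3. Early response genes went 6 up and 5 down of 20, 3 up with library totals alone: KLF6 rose (log2 change 1.05 ± 0.07, adjusted p = 2.49e-11), and EGR1 (log2 change −2.12 ± 0.28, adjusted p = 7.71e-07) and the MAP kinase brake SPRY4 (−1.08) fell.

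Most collagen and matrix genes fell. Of 27 tested 17 fell, 1 rose and 9 were not called (median −0.89), and up to 4 rose in the alternatives run. SPARC, a collagen-binding glycoprotein, was at 19.8, 16.5 and 18.6 CPM in regular medium and 2.89, 3.12 and 2.72 CPM in TIFM (log2 change −2.65 ± 0.21, adjusted p = 2.43e-10). FN1, fibronectin, was at 95.8, 60.9 and 87.9 CPM in regular medium and 31.5, 36.9 and 26.4 CPM in TIFM (log2 change −1.37 ± 0.24, adjusted p = 3.01e-05). COL4A1 of the basement membrane (−2.59) and COL6A1 (−0.89) fell with them, and the media did not overlap in any of these. Serum response and YAP targets were lower for 11 of 19, higher for 3 and not called for 5; 6 were higher without regular replicate 1. ACTB, cytoplasmic actin, was at 2749, 2372 and 2408 CPM in regular medium and 1011, 1108 and 1102 CPM in TIFM (log2 change −1.23 ± 0.16, adjusted p = 8.81e-07). MYL9, a myosin light chain, was at 274, 219 and 234 CPM in regular medium and 74.2, 85.8 and 101 CPM in TIFM (log2 change −1.48 ± 0.18, adjusted p = 1.54e-07). CNN1 (−1.64) and CNN2 (−1.35) fell, whereas the YAP targets CCN1 (0.41), CCN2 (0.27) and ANKRD1 (0.60) were not called.

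KRT19, a ductal keratin, was at 600.2, 613 and 624 CPM in regular medium and 96.8, 134 and 116 CPM in TIFM (log2 change −2.41 ± 0.21, adjusted p = 1.07e-09). KRT18, the partner of KRT8, was at 2531, 1788 and 2166 CPM in regular medium and 354, 489.8 and 641 CPM in TIFM (log2 change −2.13 ± 0.22, adjusted p = 1.25e-08); the exons of these partners are annotated as overlapping over 16.3% of KRT18. VIM, the mesenchymal filament protein vimentin with 24.4% of its exons shared with an antisense gene, was at 4706, 4587 and 4587 CPM in regular medium and 1855, 2041 and 2037 CPM in TIFM (log2 change −1.23 ± 0.13, adjusted p = 2.64e-08). All 3 were lower in every TIFM library than in any regular one. MUC1, an epithelial mucin, fell as well (−2.24), while SOX9, a ductal factor, was at 236, 230.1 and 305 CPM in regular medium and 205, 242 and 455 CPM in TIFM and CDH1, E-cadherin, at under 3 CPM in all 6 libraries, neither called. CDH2, N-cadherin (log2 change 0.91 ± 0.08, adjusted p = 1.26e-09), and SNAI2 (1.39) rose, and S100A4 fell (−1.59). The epithelial list had 6 higher, 7 lower and 9 not called of 22, and the mesenchymal list 5 higher, 7 lower and 2 not called of 14, with 3 higher under library totals alone or without regular replicate 3. In the TGF-beta and BMP list 14 of 20 were not called, and 3 rose (5 without TIFM replicate 1); TGFB2 rose (1.22; 26.6% shared exon length), and ID3 (−1.14) and GREM1 (−1.65), a BMP antagonist, fell.

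The response of clone B was then set against that of parental cells, which shares no library with it. Of the 7490 genes called in clone B, 4359 were called with the same sign in parental cells (58.2% of clone B's calls and 74.1% of the 5881 parental ones) and 104 with the opposite sign. The difference between the responses was called for 1450 genes (10.4%), 566 higher (4.06%) and 884 lower (6.34%) in clone B. That count depends on the libraries: it was 2869 without the 3 clone A TIFM libraries and 933 without parental regular replicate 1.

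Of the 27 sterol genes 8 had a higher response in clone B than in parental cells and 1 a lower one, and 4 were higher without clone B regular replicate 1. SQLE had a log2 change of −0.92 in clone B and −1.58 in parental cells (log2 difference 0.66 ± 0.13, adjusted p = 0.00142), and FASN of the fatty acid list differed in the same direction (log2 difference 1.0 ± 0.19, adjusted p = 0.00114). ER genes had a higher response for 6 of 22 and a lower one for 0 of 22, HSPA5 (log2 difference 0.55 ± 0.13, adjusted p = 0.00699) and HERPUD1 (log2 difference 0.68 ± 0.14, adjusted p = 0.0023) among them. HK2 rose by 2.45 in clone B and by 1.44 in parental cells (log2 difference 1.01 ± 0.23, adjusted p = 0.00549), PDK1 rose by 1.21 where its parental log2 change was 0.21 (log2 difference 1.0 ± 0.23, adjusted p = 0.00549), and KLF10 rose by 2.45 against 0.77 (log2 difference 1.68 ± 0.23, adjusted p = 3.44e-05).

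Some mitotic, matrix, actin and HIF genes had a lower response in clone B. For mitosis this held for 12 of 27 (7 without parental TIFM replicate 2), for collagens and matrix for 14 of 27, for serum response and YAP targets for 6 of 19 (4 without clone B regular replicate 1), and for HIF targets for 8 of 33; a higher response was called for 0, 0, 0 and 3 of them. CCNB1 changed by −2.0 in clone B and −0.70 in parental cells (log2 difference −1.30 ± 0.21, adjusted p = 0.000291), and PLK1 by −1.67 and −0.30 (log2 difference −1.37 ± 0.22, adjusted p = 0.000239). POSTN changed by −3.94 in clone B and 0.18 in parental cells (log2 difference −4.11 ± 0.77, adjusted p = 0.00114). SPARC (log2 difference −2.15 ± 0.28, adjusted p = 2.03e-05), FN1 (log2 difference −1.34 ± 0.33, adjusted p = 0.0105), MYL9 (log2 difference −1.24 ± 0.25, adjusted p = 0.00204) and KRT19 (log2 difference −1.30 ± 0.29, adjusted p = 0.00457) differed likewise. NDRG1 rose less in clone B (log2 difference −1.03 ± 0.23, adjusted p = 0.00541), and ANGPTL4 fell in clone B where its parental change was 0.50 (log2 difference −2.61 ± 0.39, adjusted p = 0.000122; −2.02 without clone B regular replicate 1). Interferon-stimulated genes had a lower response for 5 of 20, and for 1 without TIFM replicate 1 of clone B; SAMD9 was lower in every setting run (log2 difference −1.49 ± 0.31, adjusted p = 0.00308).

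**Figure D5:**
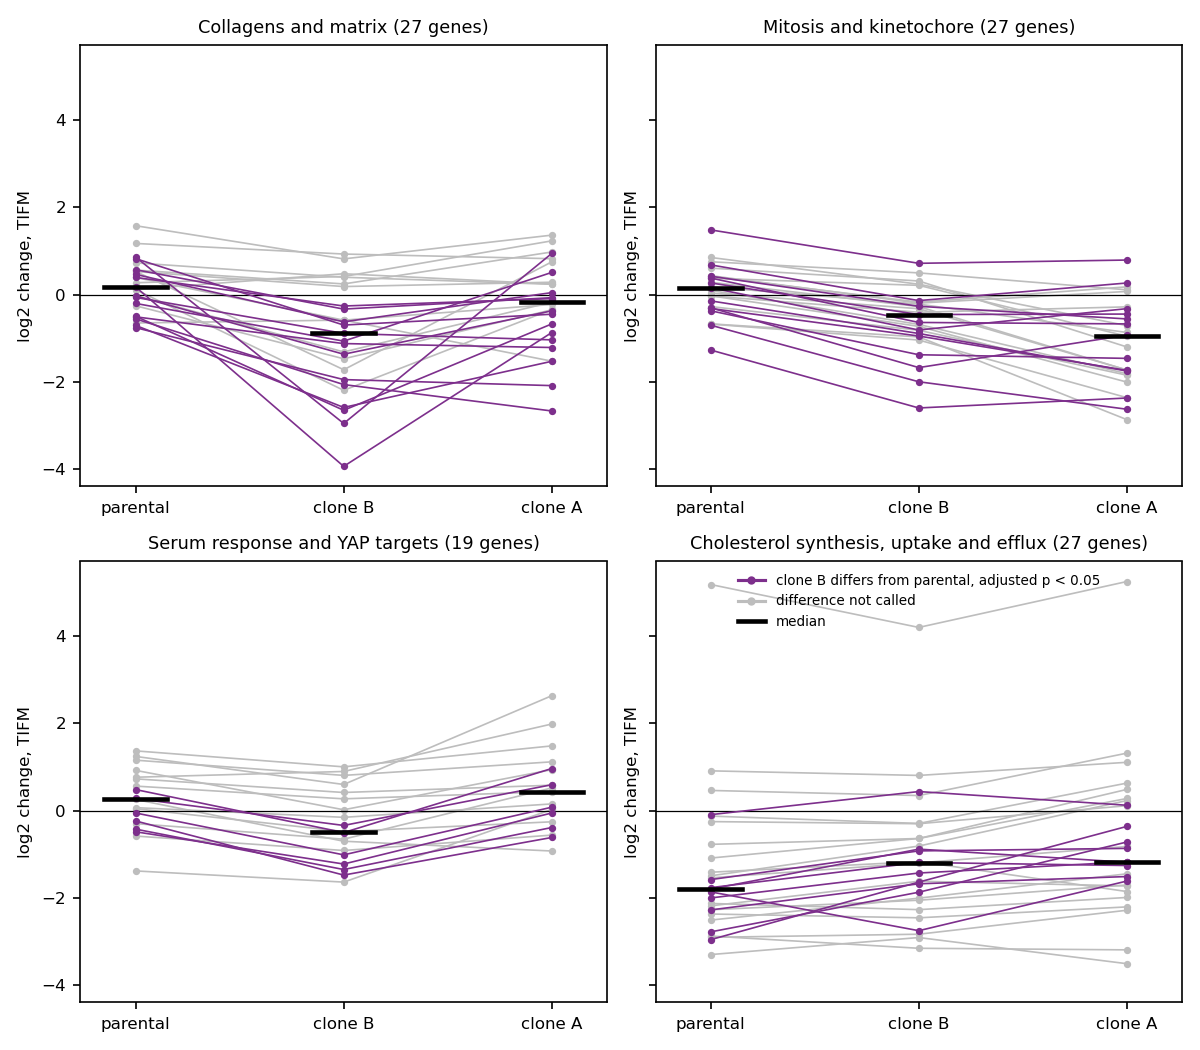
Log2 change in TIFM (y axis) of each tested member of 4 gene lists in parental cells, clone B and clone A; each thin line is 1 gene and each thick bar the median. Purple lines are genes whose response in clone B differed from the parental one at an adjusted p under 0.05: 14 matrix genes, 12 mitotic genes and 6 serum response genes go down from parental cells to clone B, and 8 of 9 sterol genes go up.

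Against clone A, 5483 of clone B's calls had the same sign (73.2% of clone B's and 58.5% of clone A's 9368) and 291 the opposite one, and 3805 genes (50.8% of clone B's) were called with 1 sign in all 3 genotypes. The difference between the clones was called for 5583 genes, 40.0% of those tested, with 2616 higher (18.8%) and 2967 lower (21.3%) in clone B; it was 3252 when only the libraries compared were fitted and 3594 with limma voom. The TIFM libraries of clone A were the most variable, with a biological coefficient of variation of 29.3% against 17.3% for clone B in TIFM and 10% for clone B in regular medium. Ribosomal proteins had a lower response in clone B than in clone A for 26 of 43 (11 when only the libraries compared were fitted) and respiratory chain genes for 26 of 36, while 13 of 27 mitotic genes had a higher one. The median log2 change of the mitotic list was −0.46 in clone B and −0.95 in clone A, so a higher response need not be a rise. HMOX1 rose by 1.70 in clone B and by 5.21 in clone A (log2 difference −3.51 ± 0.35, adjusted p = 2.92e-07), and TXNIP by 3.92 and 5.86 (log2 difference −1.94 ± 0.40, adjusted p = 0.000609). ASNS, PSAT1 and FADS2 showed no called difference between the clones, with log2 differences of 0.11 ± 0.18, 0.17 ± 0.17 and −0.26 ± 0.19; a p that misses the threshold does not show that they responded alike.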

How the data were processed

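RNA was sequenced from 27 Panc1 libraries, 3 in each of 9 groups, and groups and replicate numbers were taken from the labels. The deposited table holds whole-number read counts per gene; per the submitters' processing notes HISAT2, featureCounts and GRCh38 were used, with versions and annotation not given in the sources used here. Genes were filtered with edgeR 4.0.16 (filterByExpr by group, minimum count 10, minimum total 15), scaled by TMM, and fitted with the quasi-likelihood model over all 27 libraries (R 4.3.3); the threshold was a Benjamini-Hochberg adjusted p of 0.05. The scripts were tested on simulated data. Deviations of same-numbered libraries correlated at 0.192, −0.0126 and 0.239, and those of differently numbered ones at −0.247 to 0.066. The labels do not say whether the numbers pair the libraries, and the main fit did not pair them. Alternatives were other scalings, filters and sets of libraries, DESeq2 1.42.0, limma 3.58.1 voom, a replicate block and each library left out.

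Named genes are ARNT, the 12 largest rises and falls without overlap and averaging 5 CPM or more, fixed members of 35 gene lists (736 of 842 entries tested), the 4 largest called changes per list, and the 8 largest called differences per direction against parental cells and against clone A. The members and the lists were chosen with earlier results of these data known, and no list was tested as a set. Promoter sequences and gene starts are from RefSeq on GRCh38.p14. Some members of the gene lists enter the counts but are not reported here by name.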

Additional observations from a re-analysis of the deposited data

Results flagged for a closer look

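The TIFM response of clone B differed from that of another genotype, by a test of the difference itself, for 1450 genes against parental cells and 5583 against clone A. The values that follow are log2 differences of the response (clone B minus the other genotype) for the genes with the largest differences in each direction. With 3 libraries a group, no single library was tested for standing apart.

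Against parental cells, higher responses were those of MATN1 (1.96), LBHD1 (1.85, with 53.5% of its exon length shared with another gene), KLF10 (1.68), LYPD5 (1.67), NCR3LG1 (1.64), OSBP2 (1.5), the drug exporter ABCG2 (1.5) and SEMA3A (1.49). MATN1, NCR3LG1, OSBP2 and SEMA3A rose in clone B with parental changes between −0.29 and 0.02, whereas LBHD1 and ABCG2 were not called in clone B (−0.17 and 0.10) and fell in parental cells (−2.02 and −1.40). Lower responses were those of POSTN (−4.11), SRGN, a proteoglycan core protein (−3.12), RASSF4 (−2.79), GP6 (−2.62) and ANGPTL4 (−2.61). TRPV6, a calcium channel (−7.42), had no count in the parental libraries with regular medium and 2 to 4 counts in parental TIFM, and KRT75 (−3.66; −6.60 without parental regular replicate 1) had 3 counts in parental regular replicate 1 and 0 in the others, so the size of both differences depends on the fit's prior count and is no bound. In clone B KRT75 went up, from 116, 66 and 116 counts in regular medium to 245, 179 and 186 in TIFM, and TRPV6 went down.

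Against clone A, higher responses were those of the kinase MAP2K6 (4.08), SEMA3D (3.45), PDE5A (3.30), ITGB8 (3.25; 2.07 without clone B TIFM replicate 3), COX20 (3.14, with 72% of its exon length shared), TRIM2 (2.93), TET1 (2.80; 2.10 without clone B TIFM replicate 3) and RAB17 (2.74). A higher response here need not be a rise in clone B. There MAP2K6 went from 215, 402 and 508 counts in regular medium to 107, 94 and 44 in TIFM. ITGB8 was also lower in every clone B TIFM library than in any regular one. The calls of MAP2K6, ITGB8, COX20, TET1 and RAB17 were lost with limma voom (adjusted p = 0.32, 0.477, 0.0601, 0.0564 and 0.51), and MAP2K6 was 4.98 without clone A TIFM replicate 2; it had 1, 2 and 0 counts in the clone A TIFM libraries, so its size rests on the prior count and is no bound. Lower responses were those of DHRS2 (−3.76), HMOX1 (−3.51), NKAIN4 (−3.49), ANGPTL4 (−3.12; −2.53 without clone B regular replicate 1) and the protease ASTL (−7.39), which had no count in clone A with regular medium, so its size is no bound. In clone B itself DHRS2 and HMOX1 rose and ANGPTL4 fell. ASTL went up there, from 16, 7 and 5 counts in regular medium to 42, 79 and 66 in TIFM.

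The liver transcripts APOB (−13.43 against parental cells and −15.36 against clone A), AFP (−14.92 against clone A) and ALB (−10.04 against clone A) were flagged as well. Their calls rested on clone B regular replicate 3: without it the differences were −7.87 and −9.80 for APOB (adjusted p = 0.626 and 0.416), −7.72 for AFP (adjusted p = 1) and −5.87 for ALB (adjusted p = 0.0879). These transcripts were also read in TIFM libraries of the other genotypes. APOB had 83, 16 and 405 counts in parental TIFM and 310, 252 and 0 in clone A TIFM.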

How the results depend on the processing

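The count of 7490 genes in clone B stayed within 1.5 times itself in every alternative run: 6019 under a stricter filter, 7447 to 7499 with library totals, DESeq2's size factors or only the 6 libraries compared, 7694 with DESeq2, 7715 with limma voom, 7263 without a filter, 8276 with the 9 clone B libraries, 8402 without the 3 clone A TIFM libraries (an alternative chosen after seeing the data), and 6652 to 7018 with 1 library left out. With a replicate block it was 7586, and 8086 on the 6 libraries alone; the block gave 1502 differences from parental cells and 5735 from clone A. The difference from parental cells moved from 1450 to 2869 without the 3 clone A TIFM libraries and ran from 933 to 1456 with 1 library left out. The difference from clone A moved from 5583 to 3252 with only the libraries compared and to 3594 with limma voom, and ran from 4737 to 7264 with 1 left out; the cause was not tested. Of 9520 values of named genes under alternatives, 8937 kept direction and side of the threshold, 527 lost the call and 55 gained it; AFP, whose counts in the 6 libraries all lie in clone B regular replicate 3, ran from −7.763 to 0 with 1 library left out, 0 being the value without that library. Some small list counts moved with 1 library: heat shock genes lower went from 2 to 1 without regular replicate 1, regular replicate 2 or TIFM replicate 2, ribosomal protein genes lower from 2 to 1 without TIFM replicate 1, ribosome biogenesis genes lower from 2 to 1 without TIFM replicate 2, mitotic genes higher from 2 to 1 without regular replicate 1, and interferon-stimulated genes higher from 1 to 2 without regular replicate 3 or TIFM replicate 1. With library totals alone, members lower moved from 2 to 5 for heat shock, from 2 to 4 for tRNA synthetases and for ribosomal proteins and from 1 to 2 for MondoA and ChREBP genes, and members higher from 4 to 2 for G1 and p53 genes and for the respiratory chain. Changes under 1 CPM rest on few counts, and intervals from 3 libraries a group are wide.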

Other observations

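The 3 TIFM libraries of clone B were not equally alike in all genes. Several genes, chosen after their values were seen, had their lowest TIFM value in replicate 1 and their highest in replicate 3. SLC38A2, an amino acid carrier, was at 1678, 3005 and 5340 CPM in TIFM, and NFKBIA, which holds NF-kB in the cytoplasm, at 25.7, 59.8 and 167 CPM. PDE5A, a phosphodiesterase, was at 170.1, 283 and 485 CPM, RAB17, a vesicle GTPase, at 2.06, 8.45 and 30.1 CPM, and ITGB8, an integrin chain, at 2.32, 5.40 and 18.8 CPM. In regular medium the same genes spanned a narrower range, for example 269, 334 and 397 CPM for PDE5A and 21.3 to 29.5 CPM for ITGB8. For PDE5A and SLC38A2 the order was the same there, with replicate 1 the lowest and replicate 3 the highest. TXNIP and ARRDC4 had the opposite arrangement in TIFM, with replicate 1 the highest, and in regular medium replicate 1 was the lowest for both. An effect shared by libraries of the same number was not tested here. The 3 replicates have no order in time, and the labels give no date or batch for them.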
